A study of Mus musculus with 8 samples.

Results

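The genes described here are 8 components of transforming growth factor beta (TGF-beta) signalling: the receptors Tgfbr1 and Tgfbr2, the signal transducers Smad2, Smad3 and Smad4, the inhibitory Smad7, and the nuclear inhibitors Ski and Skil. They were chosen by symbol, and each of the 8 had 1 row among the 23743 rows used. Expression was measured by RNA-seq of mouse CD8+ T cells that bind the AH1 tetramer, a reagent carrying a peptide of an endogenous retroviral envelope protein that tumours of BALB/c mice present. There were 8 libraries in 4 groups of 2: Cd69KO (Cd69-/-) term diff, Cd69WT (wild type) term diff, Cd69KO stem-like and Cd69WT stem-like. All were on the BALB/c strain, and term diff and stem-like are the submitters' names of 2 sorted subsets. Which tumour the cells came from, how the subsets were gated, the age and sex of the mice, and whether libraries share a mouse are not in the labels. The p-values therefore measure the spread between these libraries, which may be technical.

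TGF-beta binds the kinase receptor TGFBR2, which then phosphorylates its partner TGFBR1. TGFBR1 phosphorylates SMAD2 and SMAD3, and these join SMAD4 and act on genes in the nucleus, where SKI and SKIL (also called SnoN) recruit repressors to them. SMAD7 blocks the activated receptor, and both Smad7 and Skil are themselves known targets of the pathway. In CD8+ T cells the pathway is known for restraining cytotoxic function and for promoting residence in tissue, the setting in which CD69 opposes the exit receptor S1PR1.

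Of the 8 genes, Tgfbr2 stood out by subset: it was higher in term diff than in stem-like cells of both genotypes. Of the 7 members with enough signal to test, no other changed past the threshold between the subsets, and 0 of 7 changed between the genotypes. Of all genes tested, 9.45% passed between the subsets in Cd69KO and 13.1% in Cd69WT. Between the genotypes 0.153% to 0.542% of all genes did. The Cd69KO call of Tgfbr2 was near the threshold and ended under several alternative fits. The sequence upstream of Tgfbr2 is shown because it is the member whose RNA differed. It holds the 250 bases before the start site in the RefSeq table of build GRCm38.p6, chr9:116175364-116175613, read on the minus strand, and the capitals mark its match to AGAC, the 4 letters that SMAD3 and SMAD4 contact.

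Tgfbr2 upstream: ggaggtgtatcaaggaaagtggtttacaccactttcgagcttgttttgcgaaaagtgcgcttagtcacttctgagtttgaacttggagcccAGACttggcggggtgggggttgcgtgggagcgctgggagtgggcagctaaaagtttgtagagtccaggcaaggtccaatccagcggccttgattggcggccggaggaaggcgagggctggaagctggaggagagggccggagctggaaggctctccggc

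Both strands were searched for AGAC (read as GTCT on the other strand), for CAGAC, which contains it, and for the palindrome GTCTAGAC, in windows of 300 bases that also take in the 50 bases after each start. The single AGAC of Tgfbr2 began 159 bases before the start and was part of a CAGAC; the palindrome was not among its letters. At least 1 AGAC was present in 88.0% of 32851 RefSeq windows of this length, a CAGAC in 49.6% and the palindrome in 0.2%. The table held 4 of the 8 members. Smad3 had 1 AGAC, 183 bases before its start, and Ski had 0. Tgfbr1 had 0 at the start site that the deposited tables use and 2 at a second one, in a window with 1 CAGAC.

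The libraries were of similar depth. The width of the deposited intervals implied 2055402 to 2591061 fragments per library, while summed FPKM (fragments scaled by transcript length and by library total) ran from 282589 to 919280, lowest in both Cd69WT libraries numbered 2. Cd69 itself averaged 2.32 ± 0.158 FPKM in Cd69KO term diff against 11.7 ± 1.79 in Cd69WT term diff cells, and 3.05 ± 0.902 in Cd69KO stem-like against 23.0 ± 0.696 in Cd69WT stem-like cells (SD, n = 2 each). It was thus lower in each Cd69KO library than in every Cd69WT library. The 6 CD8 T cell markers were all expressed (849 to 1310 FPKM summed), and all markers of NK cells, B cells and neutrophils stayed at or below 0.618 FPKM. Of 4 markers of CD4 and regulatory T cells 3 reached 1 FPKM in at least 2 libraries, the filter on low values, as did 2 of 7 measured myeloid markers, 1 of 10 tumour and stroma markers (Pecam1, also found on T cells) and 1 of 3 erythroid markers (Alas2). No listed marker with a row was at 0 in all libraries.

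Tgfbr2 and Smad7 were the most abundant members, with medians over the 8 libraries of 16.9 and 16.4 FPKM, a scale per transcript length on which genes can be compared. Skil had a median of 9.84, Smad4 of 7.34 and Ski of 5.37 FPKM. The receptor-activated SMADs were lower, at 2.06 for Smad2 and 1.26 for Smad3, and Tgfbr1 was lowest at 0.884. The number of fragments behind a value followed this order in part: 393 to 872 per library for Tgfbr2, but 28 to 70 for Smad3 and 26 to 58 for Tgfbr1.

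**Figure D1:**
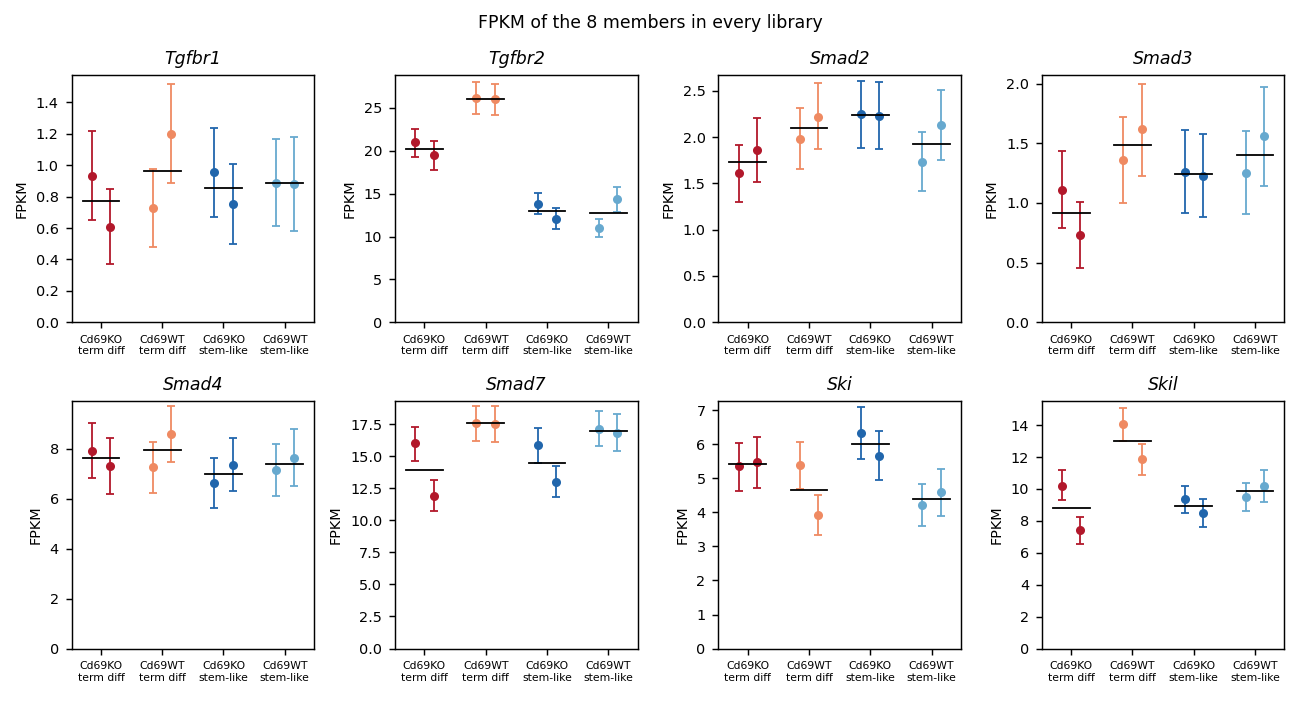
FPKM of the 8 members in each library, with the authors' deposited interval of each value as the error bar and the mean of the 2 libraries of a group as a black line. Tgfbr2 is the member whose term diff libraries (19.5 to 26.2) all lie above its stem-like libraries (11.0 to 14.4), while Smad4 stays between 6.63 and 8.60 in all 8. Of all genes tested 10.9% lie above in the same way.

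Tgfbr2, the ligand-binding receptor, lies on the minus strand of chr9:116087695-116175363 (mm10). It had 21.0 and 19.5 FPKM in Cd69KO term diff, against 13.8 and 12.1 in Cd69KO stem-like cells. In Cd69WT it had 26.2 and 26.0 FPKM in term diff, against 11.0 and 14.4 in stem-like cells. The 4 term diff libraries were all above the 4 stem-like ones, as for 10.9% of all genes, while for 11.1% they were all below. The order of the groups was Cd69WT term diff, Cd69KO term diff, Cd69KO stem-like and Cd69WT stem-like, of which the last 2 overlapped.

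Between the Cd69WT subsets Tgfbr2 rose by 0.99 ± 0.14 on the log2(FPKM + 1) scale (SE, 95% interval 0.66 to 1.32, limma adjusted p = 0.0036), a ratio of mean FPKM of 2.05. It was the only 1 of 7 members tested that passed, where 13.1% of all 9782 genes tested did. The members' median difference was 0.08 and that of all genes 0.06. Of the 19 alternatives run for it, all kept it higher and past the threshold (adjusted p at most 0.0242); without both Cd69WT libraries numbered 2 the difference was 1.18 (adjusted p = 0.023).

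Between the Cd69KO subsets Tgfbr2 rose by 0.61 ± 0.14 (95% interval 0.28 to 0.93, limma adjusted p = 0.0359), a ratio of means of 1.56. Again it was 1 of 7 members, beside 9.45% of all genes. This call was near the threshold. It ended without the filter on low values (adjusted p = 0.0906). It also ended without Cd69KO stem-like replicate 1 (adjusted p = 0.105) or 2 (0.163), without Cd69KO term diff replicate 1 (0.147) or 2 (0.113), and without Cd69WT term diff replicate 1 (0.0518) or 2 (0.052), which enter through the shared estimate of spread; the difference stayed between 0.52 and 0.69 throughout.

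Averaged over the genotypes, the rise of Tgfbr2 was 0.80 ± 0.10 (limma adjusted p = 0.00105), and 18 of 18 alternatives passed. It was higher in 4 of 4 term diff libraries than in any stem-like one, as were 10.9% of all genes, while 11.1% were lower. It was 1 of 7 members called, beside 20.5% of all genes. Whether the subset difference itself differed by genotype was tested as an interaction, which gave -0.39 ± 0.20 (95% interval -0.85 to 0.08, limma adjusted p = 0.557). For that interaction 0 of 7 members passed in limma, beside 0.0307% of all genes. With voom 0 of all genes passed, so that fit says nothing about the members. Of the members 0 had an unadjusted p under 0.05 in limma, a count whose share over all genes was not computed.

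Some summed lists of markers of other cells also differed between the subsets. Summed FPKM of the CD4 and regulatory T cell list was 4.53 to 6.36 in Cd69KO term diff against 10.5 to 12.6 in Cd69KO stem-like cells, and 6.28 to 9.56 in Cd69WT term diff against 14.8 to 17.1 in Cd69WT stem-like cells. The myeloid list had 2.93 to 5.04 in Cd69KO term diff against 6.85 to 7.63 in Cd69KO stem-like cells, and 2.31 to 5.12 in Cd69WT term diff against 4.85 to 6.02 in Cd69WT stem-like cells. Pecam1 led the tumour and stroma list, which summed to 5.08 to 7.24 in term diff against 11.5 to 15.3 in stem-like cells. Pecam1 alone had 4.23 to 5.96 FPKM in term diff against 10.7 to 13.8 in stem-like libraries. No other gene of that list exceeded 0.715 FPKM in any library. Ikzf2, which some CD8+ T cells also express, led the CD4 and regulatory T cell list with up to 9.4 FPKM. Cd4 itself overlapped between the subsets, at 1.4 and 4.01 FPKM in Cd69KO term diff against 2.53 and 4.12 in Cd69KO stem-like cells, and at 1.38 and 3.83 in Cd69WT term diff against 5.52 and 3.04 in Cd69WT stem-like cells. The 3 sums were lower in the subset where Tgfbr2 was higher, without overlap except for the myeloid list in Cd69WT, and their part in its difference was not tested. In such bulk libraries fewer cells with an RNA and less of it per cell cannot be told apart.

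The genes whose log2(FPKM + 1) followed that of Tgfbr2 most closely over the 8 libraries were Sorl1 (Pearson r = 0.994), a sorting receptor, Txk (0.993), a kinase of the Tec family found in T cells, and Prex1 (0.987), an exchange factor for the GTPase Rac. They were the top 3 of 4504 genes with a mean of at least 5 FPKM, among which 5.24% had r of at least 0.9. The 8 libraries share the subset and genotype divisions, so these are descriptions. Prex1 averaged 35.7 ± 4.59 FPKM in Cd69KO term diff against 15.4 ± 1.15 in Cd69KO stem-like cells, and 51.2 ± 5.07 in Cd69WT term diff against 16.0 ± 2.44 in Cd69WT stem-like cells (SD, n = 2 each).

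Tgfbr1, the partner kinase on chr4:47353305-47414924, plus strand, was detected in every library at a low level. It had 0.932 and 0.607 FPKM in Cd69KO term diff and 0.730 and 1.2 in Cd69WT term diff cells. The stem-like libraries had 0.957 and 0.756 in Cd69KO and 0.889 and 0.879 in Cd69WT. All 4 groups overlapped with their neighbours in the order. Only 1 library reached 1 FPKM, so Tgfbr1 was left out by the filter on low values. In a fit without that filter (22397 genes) it differed by at most 0.15 in size in every comparison (limma adjusted p of at least 0.796), which at 26 to 58 fragments per library leaves only large differences detectable.

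Smad2, one of the SMADs phosphorylated by the receptor, lies on chr18:76241701-76311747, plus strand. It had 1.61 and 1.86 FPKM in Cd69KO term diff against 2.25 and 2.23 in Cd69KO stem-like cells, and 1.98 and 2.22 in Cd69WT term diff against 1.73 and 2.13 in Cd69WT stem-like cells. The Cd69KO subsets did not overlap, with term diff below as for 32.4% of all genes, and the Cd69WT subsets did. The difference in Cd69KO was -0.25 ± 0.14 (limma adjusted p = 0.316) and that in Cd69WT was 0.08 ± 0.14 (limma adjusted p = 0.738).

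Smad3, the other receptor-activated SMAD here, is on the minus strand at chr9:63646767-63757994. Cd69KO term diff libraries had 1.11 and 0.730 FPKM, against 1.36 and 1.62 in Cd69WT term diff. In stem-like cells it had 1.26 and 1.23 in Cd69KO against 1.25 and 1.56 in Cd69WT. The lowest group, Cd69KO term diff, did not overlap with any other, but rested on few fragments. Of all genes 28.1% lay below Cd69WT term diff without overlap in that group, and 32.4% lay below Cd69KO stem-like. Its difference from Cd69WT term diff was -0.38 ± 0.16 (95% interval -0.74 to -0.01, limma adjusted p = 0.317), which did not pass.

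Smad4, the common partner on chr18:73639013-73703741, minus strand, was the most even member. It had 7.93 and 7.31 FPKM in Cd69KO term diff, 7.27 and 8.60 in Cd69WT term diff, 6.63 and 7.37 in Cd69KO stem-like and 7.15 and 7.65 in Cd69WT stem-like cells. Its highest library was 1.3 times its lowest and all neighbouring groups overlapped. The 95% interval of the subset difference averaged over genotypes was -0.11 to 0.30, and that of the genotype difference averaged over subsets -0.26 to 0.14.

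Smad7, the inhibitor of the activated receptor, lies on chr18:75367365-75395934, plus strand. It had 16.0 and 11.9 FPKM in Cd69KO term diff against 17.6 and 17.5 in Cd69WT term diff cells. In stem-like cells it had 15.9 and 13.0 in Cd69KO against 17.1 and 16.8 in Cd69WT. All 4 Cd69KO libraries were below all 4 Cd69WT libraries, as for 1.32% of all genes. After median-of-ratios scaling this held for Smad3 and Skil too, beside 1.91% of all genes. The replicates of each Cd69KO group were further apart than those of the Cd69WT groups. The difference averaged over subsets was -0.28 ± 0.11 (95% interval -0.53 to -0.02, limma adjusted p = 0.367), which did not pass in any of 18 alternatives (lowest adjusted p = 0.0666, range of the difference -0.37 to -0.18). Between the subsets, averaged over genotypes, the interval was -0.26 to 0.25.

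Ski, a nuclear inhibitor of the SMADs on chr4:155154075-155222535, minus strand, had 5.35 and 5.48 FPKM in Cd69KO term diff against 5.39 and 3.92 in Cd69WT term diff cells. In stem-like cells it had 6.34 and 5.67 in Cd69KO against 4.22 and 4.59 in Cd69WT, with no overlap. There 26.3% of all genes were likewise higher in Cd69KO without overlap. The genotype difference in stem-like cells was 0.37 ± 0.15 (95% interval 0.03 to 0.71, limma adjusted p = 0.627), and averaged over subsets it was 0.28 ± 0.10 (limma adjusted p = 0.345). Neither passed, also not under any alternative run for them.

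Skil, the second nuclear inhibitor, is on the plus strand of chr3:31095061-31122577. It had 10.2 and 7.40 FPKM in Cd69KO term diff against 14.1 and 11.9 in Cd69WT term diff cells, and 9.35 and 8.50 in Cd69KO stem-like against 9.50 and 10.2 in Cd69WT stem-like cells. Within each subset the Cd69KO libraries were below the Cd69WT ones, as for 28.1% of all genes in term diff and 11.5% in stem-like cells. The difference in term diff cells was -0.52 ± 0.16 (95% interval -0.89 to -0.15, limma adjusted p = 0.239). It did not pass in any of 19 alternatives (lowest adjusted p = 0.0615). On the log2(FPKM + 1) scale it was the largest genotype difference in size among the 7 members tested. As a ratio of mean FPKM, Cd69KO over Cd69WT in term diff cells, Smad3 was lower at 0.62 than Skil at 0.68. Between the Cd69WT subsets Skil differed by 0.36 ± 0.16 (limma adjusted p = 0.184), and between the Cd69KO subsets its 95% interval was -0.40 to 0.34.

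Among the members 0 of 7 passed between the genotypes in term diff cells, where 0.194% of all genes did. In stem-like cells 0 of 7 passed, beside 0.153% of all genes, and averaged over subsets 0 of 7, beside 0.542%. Voom also gave 0 members in each. Of all 9782 genes it called 342 in term diff, 43 in stem-like and 235 averaged over subsets. At an unadjusted p under 0.05 in limma there were 3 members in term diff (15.1% of all genes), 1 in stem-like (7.26%) and 3 averaged over subsets (12.4%). In term diff cells the Cd69KO libraries lay below the Cd69WT ones without overlap for 5 of 7 members (Tgfbr2, Smad2, Smad3, Smad7 and Skil), against 28.1% of all genes, and 0 lay above, against 19.7% of all genes. After median-of-ratios scaling it was 4 of 7, without Smad2, against 25.3% of all genes, and again 0 above, against 25.4%. The members' median difference there was -0.32 and that of all genes -0.05. For Tgfbr2 the difference in term diff cells was -0.35 ± 0.14 (95% interval -0.68 to -0.02, limma adjusted p = 0.307), and in stem-like cells 0.04 ± 0.14 (limma adjusted p = 0.973). Summed CD8 T cell markers also differed between the genotypes, at 1170 to 1310 FPKM in Cd69KO term diff against 849 to 923 in Cd69WT term diff, and at 1030 to 1070 in Cd69KO stem-like against 878 to 1020 in Cd69WT stem-like cells. In term diff cells Cd3g, which led the list with up to 605 FPKM, Cd3d, Cd8b1 and Cd2 were higher in Cd69KO without overlap. Cd8a (166 and 129 in Cd69KO against 131 and 138 in Cd69WT) and Cd3e overlapped there. The part of these markers in the members' values was not tested.

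**Figure D2:**
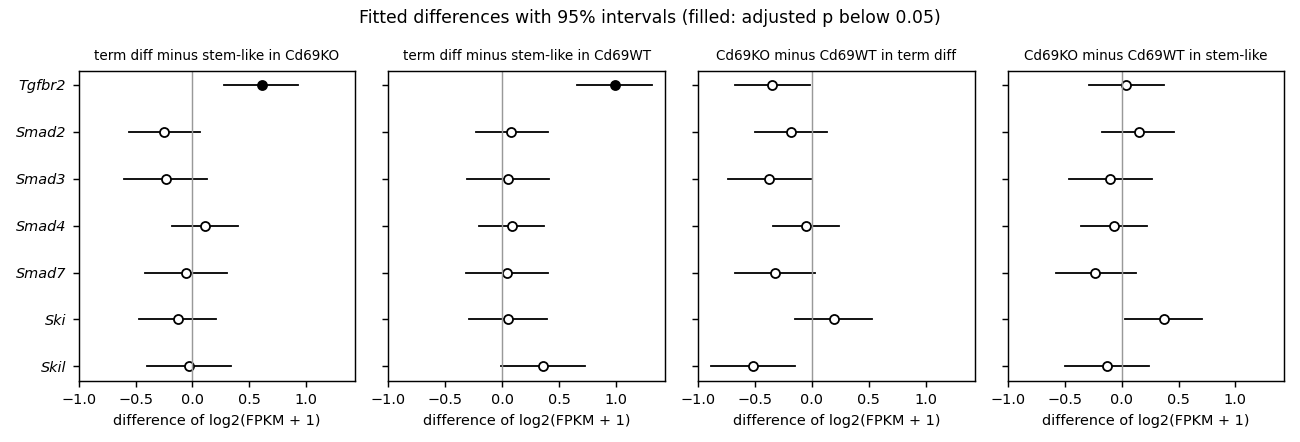
Fitted differences of log2(FPKM + 1) for the 7 members past the filter in 4 comparisons, with 95% intervals; filled points have an adjusted p below 0.05. Only Tgfbr2 is filled, in both subset comparisons, at 0.61 in Cd69KO and 0.99 in Cd69WT.

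Ratios of 2 members within a library do not depend on how that library was scaled. Skil over Ski was 1.92 and 1.35 in Cd69KO term diff against 2.61 and 3.03 in Cd69WT term diff cells. In stem-like cells it was 1.47 and 1.5 in Cd69KO against 2.25 and 2.22 in Cd69WT. All 4 Cd69KO libraries were below all 4 Cd69WT libraries. This restates that within each subset Skil was lower in the Cd69KO libraries and the mean of Ski higher. Over all 8 libraries each gene alone overlapped between the genotypes, and neither passed in a genotype comparison. No test was run on the ratios.

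Tgfbr2 over Tgfbr1 was 21.6 to 35.9 in term diff libraries against 12.4 to 16.4 in stem-like libraries, with the uncertainty of the few Tgfbr1 fragments. Smad3 over Smad2 was 0.392 to 0.693 in Cd69KO against 0.686 to 0.730 in Cd69WT libraries, which overlapped, and Smad7 over Smad4 stayed between 1.62 and 2.42. Tgfbr2 made up 32.7% to 35.6% of the summed FPKM of the 8 members in term diff libraries, against 20.8% to 24.7% in stem-like libraries.

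**Figure D3:**
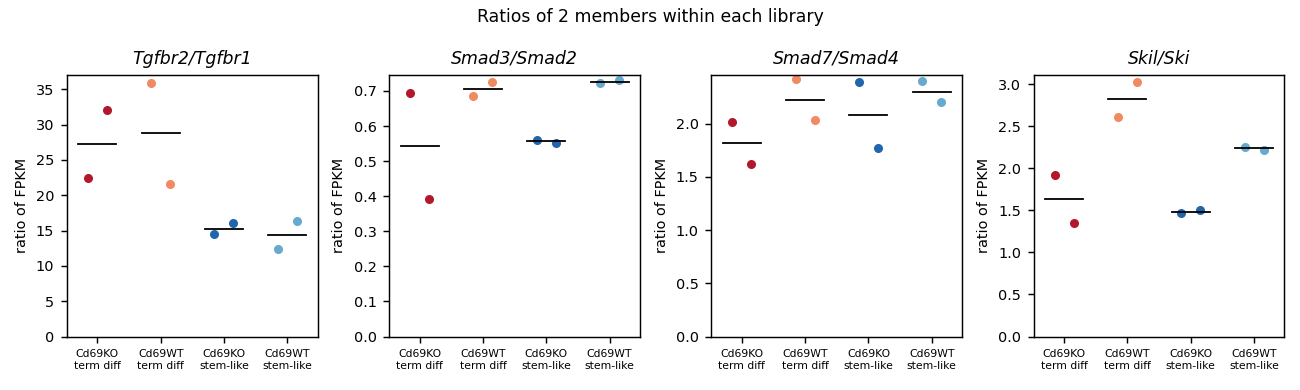
Ratios of the FPKM of 2 members in each library, with the mean of the 2 libraries of a group as a black line. Skil over Ski lies at 1.35 to 1.92 in the Cd69KO libraries and at 2.22 to 3.03 in the Cd69WT libraries.

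Genes that surround the members in the pathway differed between the subsets in several places, and 0 genes of any of the 7 lists below passed in a genotype comparison or the interaction. Of 14 genes for ligands and their activation 5 passed the filter. Itgav, the integrin chain alpha V that takes part in releasing active TGF-beta, rose in term diff cells by 0.94 ± 0.15 in Cd69KO (limma adjusted p = 0.00801) and 1.24 ± 0.15 in Cd69WT (adjusted p = 0.00181). Its partner chain Itgb8 reached 1 FPKM in 3 stem-like libraries and 0 term diff ones, so it passed the filter only through the subset where it is high and its difference is given with no test: it had 0.36 and 0.176 FPKM in Cd69KO term diff against 1.25 and 0.857 in Cd69KO stem-like cells, and 0.536 and 0.379 in Cd69WT term diff against 1.92 and 1.75 in Cd69WT stem-like cells. Tgfb1, the main ligand of the immune system, averaged 26.1 ± 3.35 FPKM in Cd69KO term diff against 22.4 ± 1.42 in Cd69KO stem-like cells, and 28.2 ± 0.229 in Cd69WT term diff against 19.2 ± 1.60 in Cd69WT stem-like cells (SD, n = 2 each). It rose in Cd69WT (0.53 ± 0.13, adjusted p = 0.0332) and was at 0.21 in Cd69KO (adjusted p = 0.377). Leaving Itgb8 aside, Tgfb1 and Itgav were the calls in Cd69WT, both higher, and Itgav the call in Cd69KO. The medians of the 5 genes, with Itgb8 among them, were 0.01 in Cd69KO and 0.25 in Cd69WT, against -0.03 and 0.06 for all genes, of which 9.45% and 13.1% were called.

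The Tgfb1 call was near the threshold. It ended without any 1 of the 4 Cd69WT libraries or either Cd69KO stem-like library (adjusted p = 0.0532 to 0.155), without the filter (0.0713), with quantile normalization (0.0515), with only the compared groups in the fit (0.0571) and without both Cd69WT libraries numbered 2 (0.149). For Itgav in Cd69KO the call ended without Cd69KO stem-like replicate 2 (0.0563).

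Of 12 other receptors of the family only Bmpr2, a receptor for bone morphogenetic proteins, passed the filter. It fell in Cd69KO by 0.73 ± 0.19 (limma adjusted p = 0.0458) and was at -0.47 in Cd69WT (adjusted p = 0.139). That call ended without any 1 Cd69KO library (adjusted p = 0.104 to 0.211), with a pseudocount of 5 (0.058), without the filter (0.134) and with an untrended prior (0.0576). Of 4 other SMADs 2 passed the filter. Smad1, which acts below bone morphogenetic protein receptors, did so only through the 4 stem-like libraries, so it is likewise given with no test. It had 0.977 and 0.673 FPKM in Cd69KO term diff against 2.29 and 1.95 in Cd69KO stem-like cells, and 0.74 and 0.386 in Cd69WT term diff against 1.59 and 1.27 in Cd69WT stem-like cells. Smad5, of the same branch, was at -0.41 in Cd69KO (adjusted p = 0.164) and -0.33 in Cd69WT (adjusted p = 0.229). The inhibitory Smad6 reached at most 0.0921 FPKM.

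Among 21 regulators of the receptors and SMADs 16 passed the filter, and the deubiquitinase Usp11 was the 1 called within a genotype, lower in both. The list's medians were -0.09 in Cd69KO and 0.10 in Cd69WT, against -0.03 and 0.06 for all genes, of which 9.45% and 13.1% were called. Usp11 fell by 0.78 ± 0.13 in Cd69KO (limma adjusted p = 0.00757) and 0.55 ± 0.13 in Cd69WT (adjusted p = 0.0258). Its call ended in Cd69KO without stem-like (0.0567) or term diff replicate 2 (0.0535) of that genotype, and in Cd69WT without any 1 Cd69WT library (adjusted p = 0.0774 to 0.121), without the filter (0.0608), with only the compared groups (0.0558) and without both Cd69WT libraries numbered 2 (0.146). Of 14 partners and co-regulators of SMADs 13 passed the filter. Tgif1, a SMAD corepressor, fell in Cd69KO (-0.64 ± 0.16, adjusted p = 0.047), as did Zeb2, a SMAD-binding repressor (-0.55 ± 0.13, adjusted p = 0.0319), with -0.47 (adjusted p = 0.103) and -0.35 (adjusted p = 0.111) in Cd69WT. The medians of this list were -0.25 in Cd69KO and 0.10 in Cd69WT, against -0.03 and 0.06 for all genes, of which 9.45% and 13.1% were called. The Tgif1 and Zeb2 calls ended without any 1 Cd69KO library (adjusted p = 0.0525 to 0.256) and without the filter (0.122 for Tgif1, 0.0711 for Zeb2). The Tgif1 call also ended with an untrended prior (0.0586), and the Zeb2 call without both Cd69WT libraries numbered 2 (0.0567).

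Genes known to respond to TGF-beta did not all move one way. Of 14 genes reported to rise with it, 7 passed the filter. Itga1, the integrin chain CD49a of resident T cells, passed only through the 4 term diff libraries, so its values are given with no test. It had 3.38 and 3.29 FPKM in Cd69KO term diff against 0.362 and 0.245 in Cd69KO stem-like cells, and 2.36 and 1.29 in Cd69WT term diff against 0.24 and 0.231 in Cd69WT stem-like cells. Rgs16, a regulator of G protein signalling, rose by 1.76 ± 0.13 in Cd69KO (limma adjusted p = 0.000267) and 1.68 ± 0.13 in Cd69WT (adjusted p = 0.000245). Id3, an inhibitor of E proteins known from memory precursor cells, passed only through the 2 Cd69WT stem-like libraries, at 1.24 and 1.42 FPKM or 8 fragments in each, against 0 and 0.146 FPKM or 0 and 1 fragments in Cd69WT term diff cells. Itgae, the integrin chain CD103 that TGF-beta is best known for raising in CD8+ T cells, stayed below the filter at 0.159 to 0.547 FPKM. Leaving Itga1 and Id3 aside, Rgs16 was the call of this list in both genotypes, where 9.45% of all genes were called in Cd69KO and 13.1% in Cd69WT. The medians of the 7 genes were -0.15 in Cd69KO and -0.12 in Cd69WT, against -0.03 and 0.06 for all genes. These 7 include Itga1 and Id3, and also Cdkn2b, which reached 1 FPKM in 2 term diff libraries and 0 stem-like ones. The medians are thus a description only.

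Of 12 genes reported to fall with TGF-beta 8 passed the filter. The cytotoxic granule genes rose in term diff cells: Gzmb by 2.98 ± 0.17 in Cd69KO (limma adjusted p = 6.3e-05) and 3.38 ± 0.17 in Cd69WT (adjusted p = 2.3e-05), and Prf1 by 1.72 ± 0.17 in Cd69KO (adjusted p = 0.000865) and 1.91 ± 0.17 in Cd69WT (adjusted p = 0.000382). Tbx21, the effector transcription factor T-bet, rose by 0.72 ± 0.12 in Cd69KO (adjusted p = 0.00815) and 0.92 ± 0.12 in Cd69WT (adjusted p = 0.00222). Klf2, which drives S1pr1, fell in Cd69KO (-1.39 ± 0.26, adjusted p = 0.0134) and was at -0.24 in Cd69WT (adjusted p = 0.594). Eomes, the T-box partner of T-bet, named as the fifth call of this list after its values were seen, fell in Cd69KO (-1.28 ± 0.25, adjusted p = 0.0168) and was at -0.76 in Cd69WT (adjusted p = 0.0887). The list thus had 3 higher and 2 lower of 8 in Cd69KO (median 0.28, all genes -0.03 with 9.45% called) and 3 higher and 0 lower in Cd69WT (median 0.55, all genes 0.06 with 13.1% called). In Cd69KO the call of Tbx21 ended without Cd69KO stem-like replicate 1 (0.0667), 2 (0.0541) or term diff replicate 1 (0.0576), that of Klf2 without Cd69KO term diff replicate 1 (0.0794) or 2 (0.0705), and that of Eomes without any 1 Cd69KO library (adjusted p = 0.062 to 0.108). Without the filter the Klf2 and Eomes calls ended too (0.0683 for Klf2, 0.0795 for Eomes).

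**Figure D4:**
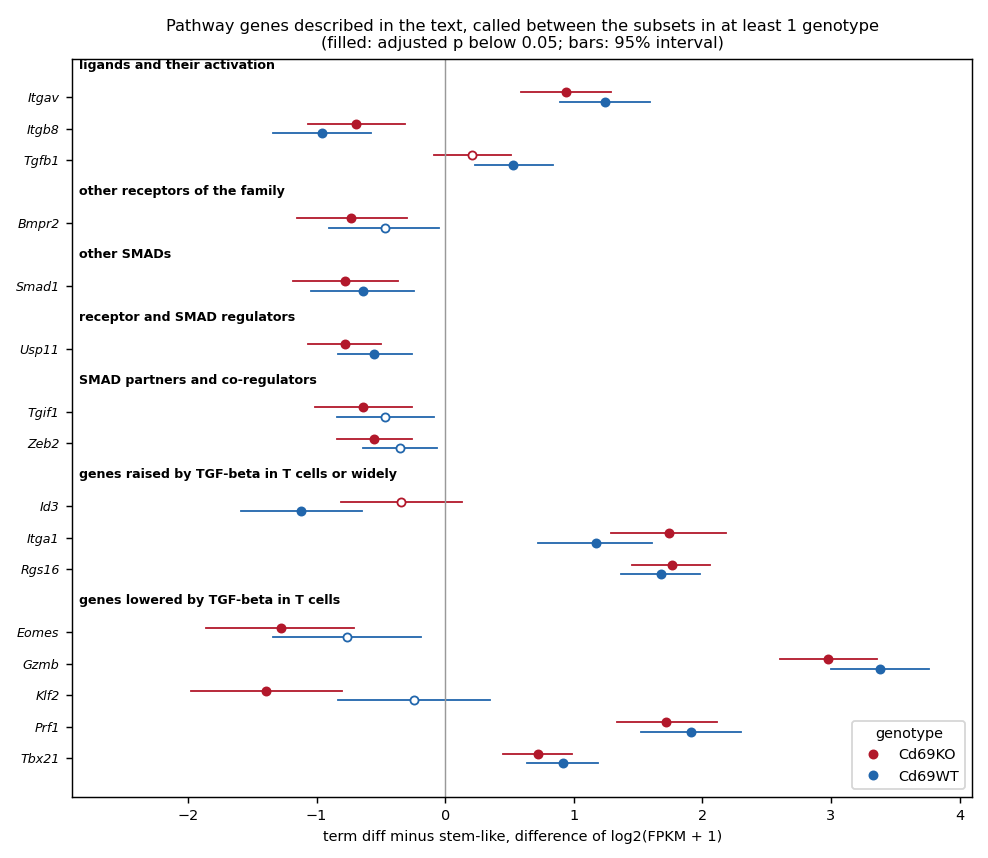
Difference of log2(FPKM + 1), term diff minus stem-like, with 95% intervals for the pathway genes described here that were called in at least 1 genotype, Cd69KO in red above Cd69WT in blue; filled points have an adjusted p below 0.05. The values run from -1.39 (Klf2 in Cd69KO) to 3.38 (Gzmb in Cd69WT), and every list with more than 2 genes drawn holds points on both sides of 0. For the ligands this is only through Itgb8, and for the genes raised by TGF-beta only through Id3. Itgb8, Smad1, Itga1 and Id3 passed the filter through 1 subset and had to differ, so their filled points are not read as calls.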

How the data were processed

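CD8+ T cells had been sorted live, and libraries made with a SMARTer stranded total RNA kit were read single-end on a NextSeq500, per the labels' protocols. The authors deposited 1 gene table per library in FPKM with its confidence limits, laid out as Cufflinks writes them per the file headers. Tools named in the submitters' processing notes are Cufflinks 2.2.1, TopHat 1.3.2, Bowtie2 2.3.4 and bcl2fastq 2.20, with build mm10; annotation and strand setting are not given in the sources used here. In GENCODE M21 no exon of another gene overlaps a member's exons. Of 23746 rows 3 were left out for a failed status. Starts are printed 1-based.

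Implied fragments are the square of 2 times the FPKM over the distance to its upper limit, and cover counting error only. The 9782 genes that reached 1 FPKM in 2 or more libraries were fitted as log2(FPKM + 1) with limma 3.58.1 in R 4.3.3: 4 group means, trended empirical Bayes, 4 residual and 4.2 prior degrees of freedom, 2-sided tests, Benjamini-Hochberg adjustment over all genes kept and a threshold of 0.05. These differences understate the change of low genes. The script was tested on simulated data. The members and lists were chosen with earlier results of these data known. Named genes were the members, up to 4 called genes of each list with the smallest p, and the 3 genes most like each called member; 1 gene of the lists is not reported here. Alternatives changed the pseudocount, filter, scaling, prior, libraries in the fit and replicate block, used voom on implied fragments, or left out libraries; leaving out both Cd69WT libraries numbered 2 was chosen after seeing the data.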

Additional observations from a re-analysis of the deposited data

How the results depend on the processing

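Over 19 alternatives, Tgfbr2 was the only member called between the Cd69WT subsets and averaged over genotypes in each that was run. For the genotype comparisons and the interaction 0 members were called in each. The members tested were not always the same 7. Tgfbr1 was added without a filter, and Smad2 and Smad3 dropped out with a filter of at least 5 FPKM. Between the Cd69KO subsets the count was 0 without a filter (adjusted p = 0.0906) and with the replicate block (adjusted p = 0.0627), and 0 to 1 when 1 library was left out. The fit without a filter covered 22397 genes, against 9782 with it. Why the call ended in these fits was not tested. The block ended no other member's call; of the pathway genes named in the text it ended those of Tgfb1 in Cd69WT (0.0562) and of Tgif1 (0.0627) and Zeb2 (0.0553) in Cd69KO. Libraries with the same number were not shown to pair: their deviations correlated at -0.30 to 0.15 between groups, and no label says that a number marks a shared mouse or batch.

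Another 45 values of members changed sign, all of differences of at most 0.18 that never passed. Under median-of-ratios scaling these were -0.03 for Tgfbr2 (Cd69KO minus Cd69WT in stem-like), 0.01 for Smad4 (genotype, term diff), -0.04 for Smad7 and -0.01 for Ski (subset, Cd69WT), 0.02 for Smad7 (interaction) and 0.01 for Skil (subset, Cd69KO). Under quantile normalization they were -0.04 for Tgfbr2 (genotype, stem-like), 0.01 for Smad2 (genotype, averaged), and -0.07 (subset, Cd69WT) and 0.01 (interaction) for Smad7. With voom they were -0.01 for Smad3, -0.02 for Smad7 and -0.01 for Ski (subset, Cd69WT), 0.01 for Smad7 and 0.06 for Skil (subset, Cd69KO) and 0.03 for Smad7 (interaction). Without both Cd69WT libraries numbered 2 they were 0.06 for Smad2 and 0.02 for Smad4 (genotype, averaged), 0.06 for Smad4 (genotype, term diff) and 0.08 for Ski (subset, averaged).

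With 1 library left out, the ranges that crossed 0 were -0.14 to 0.21 for Tgfbr2 (genotype, stem-like), -0.01 to 0.18 (subset, Cd69WT) and -0.07 to 0.03 (genotype, averaged) for Smad2, and -0.04 to 0.14 for Smad3 (subset, Cd69WT). For Smad4 they were -0.02 to 0.19 (subset, Cd69WT), -0.16 to 0.06 (genotype, term diff) and -0.08 to 0.13 (interaction). For Smad7 they were -0.26 to 0.14 (subset, Cd69KO), -0.11 to 0.09 (subset, averaged) and -0.30 to 0.10 (interaction), for Ski -0.14 to 0.24 (subset, Cd69WT), -0.13 to 0.06 (subset, averaged) and -0.37 to 0.01 (interaction), and for Skil -0.24 to 0.18 (subset, Cd69KO). A group left with 1 library is assumed to vary like the others.

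Over all genes the number called moved from 1278 to between 362 (without both Cd69WT libraries numbered 2) and 1881 (voom) between the Cd69WT subsets, and from 924 to between 287 (without Cd69KO stem-like replicate 1) and 1631 (voom) between the Cd69KO subsets. Between the genotypes it moved from 19 to between 3 and 342 in term diff and from 15 to between 4 and 43 in stem-like cells. Averaged over subsets it moved from 53 to between 13 and 235. Of the alternative values of called genes other than the members, 760 stayed past the threshold and 144 did not. With 2 libraries a group and at most 70 fragments per library, small differences of Smad3 and Tgfbr1 were not detectable.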
